A study of Rattus norvegicus with 8 samples.

Results

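A set of 8 microRNAs (miRNAs) known to be induced in inflammation was followed in rat synovial tissue, the lining of the joint. They are rno-miR-146a-5p, rno-miR-146b-5p, rno-miR-155-5p, rno-miR-132-3p, rno-miR-212-3p, rno-miR-221-3p, rno-miR-222-3p and rno-miR-31a-5p, written without the species prefix from here on, and were chosen by name from the 758 rat miRNAs of the array, with no measured value in the rule. Earlier results of these data were known when they were chosen. Synovium came from the left knee of Sprague-Dawley rats on the side away from the skin incision. The 4 samples of the ACLT group (anterior cruciate ligament transection) followed surgical cutting of that ligament, used to model osteoarthritis. The 4 sham samples followed the same approach with the ligament exposed but not severed, so both groups had their joint opened. Each RNA was hybridised to 1 single-colour array. The labels give 14 days in the title, 2 weeks in the protocol and 7 days in the design text as the time of sampling, and no age or sex. The replicates are numbered with no word on whether each came from its own animal. The p-values therefore measure the spread among these samples alone, and it may be technical.

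These miRNAs are switched on by signals that run through the joint after injury. miR-146a and miR-146b are transcribed under NF-kB and hold back Toll-like and interleukin-1 receptor signalling through the adaptors Irak1 and Traf6, a negative feedback. miR-155 comes from the transcript of Mir155hg and rises in activated macrophages and lymphocytes, where it acts on Socs1 and Inpp5d. miR-132 and miR-212 lie next to each other and respond to CREB, miR-221 and miR-222 lie next to each other on the X chromosome and repress the cell cycle inhibitor Cdkn1b, and miR-31 is induced by tumour necrosis factor in endothelium and skin. In bulk tissue, fewer cells of a type and less RNA per cell cannot be told apart.

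The mature sequences show which members could bind the same messages, since the seed, bases 2 to 8 from the 5′ end (in capitals below), leads target recognition. All 8 names matched RefSeq (build GRCr8), and they fell into 5 seed groups: 3 pairs with a common seed, and miR-155-5p and miR-31a-5p each with its own.
miR-146a-5p: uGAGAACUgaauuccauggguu
miR-146b-5p: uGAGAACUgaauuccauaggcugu
miR-132-3p: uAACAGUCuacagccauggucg
miR-212-3p: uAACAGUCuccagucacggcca
miR-221-3p: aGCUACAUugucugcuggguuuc
miR-222-3p: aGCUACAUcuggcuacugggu
miR-155-5p: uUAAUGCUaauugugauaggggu
miR-31a-5p: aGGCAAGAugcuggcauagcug

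Counted from the 5′ end, miR-146a-5p and miR-146b-5p were identical at 20 of 22 compared bases, with the substitutions G18A and U21C (miR-146a-5p first), and miR-146b-5p was longer, with 24 bases. How far their probes tell these 2 apart was not tested. miR-132-3p and miR-212-3p shared 17 of 22 bases, and miR-221-3p and miR-222-3p shared 11 of 21, the first 8 among them. Of 685 rat miRNAs of the array with a mature sequence in that table, 0 others carried any of the 5 seeds.

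On GRCr8 the mature miR-146a-5p lies at chr10:28350053-28350074 (minus strand) within the long non-coding RNA gene LOC134480673. miR-146b-5p lies at chr1:255144874-255144897 (plus strand) within the bounds of the protein-coding gene C1h10orf95, and miR-155-5p at chr11:37261117-37261139 (plus strand) within Mir155hg. miR-212-3p (chr10:60521811-60521832) and miR-132-3p (chr10:60522091-60522112) start 280 bases apart on the plus strand, in no other annotated gene. miR-222-3p (chrX:6022682-6022702) and miR-221-3p (chrX:6023246-6023268) start 564 bases apart on the plus strand within LOC120099382 and LOC120099384. miR-31a-5p lies at chr5:108714906-108714927 (minus strand) within LOC130062807. The arrays' own grid names build rn4, and these positions are not on it.

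Detection ranged over the members from all arrays to none. The scanner software called miR-146a-5p and miR-221-3p detected on all 8 arrays, 5 members on some arrays and miR-132-3p on none. For comparison, 13.6% of the 758 rat miRNAs were called on all 8 arrays and 26.3% on at least 1. Over the 32 pairs of a member and an array in each group, 17 were detected after ACLT (53.1%) and 13 after sham surgery (40.6%). Over all rat miRNAs the same shares were 18.5% after ACLT (561 of 3032 pairs) and 17.8% after sham surgery (539 of 3032). Each member is measured by 2 probes of 8 spots, 16 spots in all, and the mean of these spots in linear intensity units (spots marked as outliers left out) gives its level on an array before any scaling. The negative control spots, which match no rat miRNA, had medians of 4.33 to 5.77 in the same units over the 8 arrays.

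**Figure D1:**
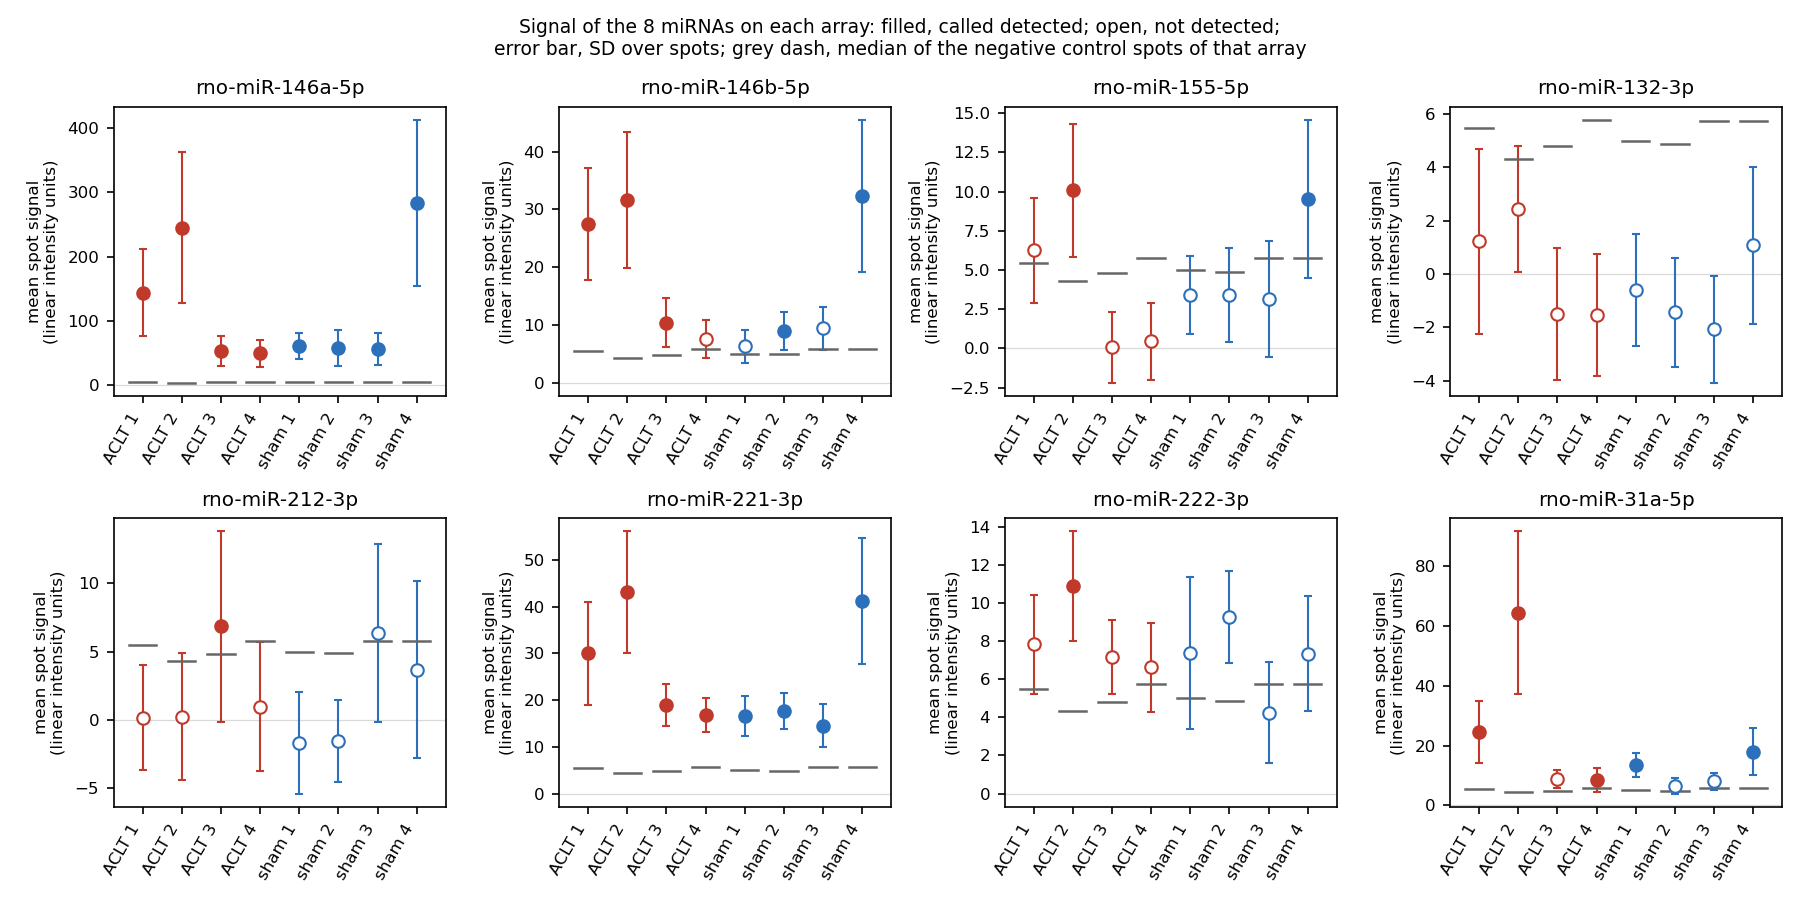
Mean spot signal (vertical axis, linear intensity units, a scale of its own in each panel) of each of the 8 miRNAs on each array (horizontal axis), with the SD over the spots of both probes as error bars, filled points where the miRNA was called detected and grey dashes at the median of that array's negative control spots. miR-146a-5p and miR-221-3p are filled on all arrays, while miR-132-3p lies below the grey dash on all 8.

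The arrays differed in brightness within both groups, which bears on every unscaled value. Taken over probes that stood well above background everywhere, the 75th percentile was 1185 on sham replicate 4, 1097 on ACLT replicate 2 and 797 on ACLT replicate 1, and 289 to 353 on the other 5 arrays. On those 3 brightest arrays 15 of 24 pairs of member and array were detected (62.5%), and 15 of 40 on the other 5 (37.5%). Over all rat miRNAs these shares were 22.1% and 15.8%, with 149 to 184 and 111 to 126 miRNAs detected per array. Since 2 of the 3 brightest arrays are ACLT arrays, more detection after ACLT and more detection on bright arrays cannot be told apart here. All spots stayed below saturation.

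**Figure D2:**
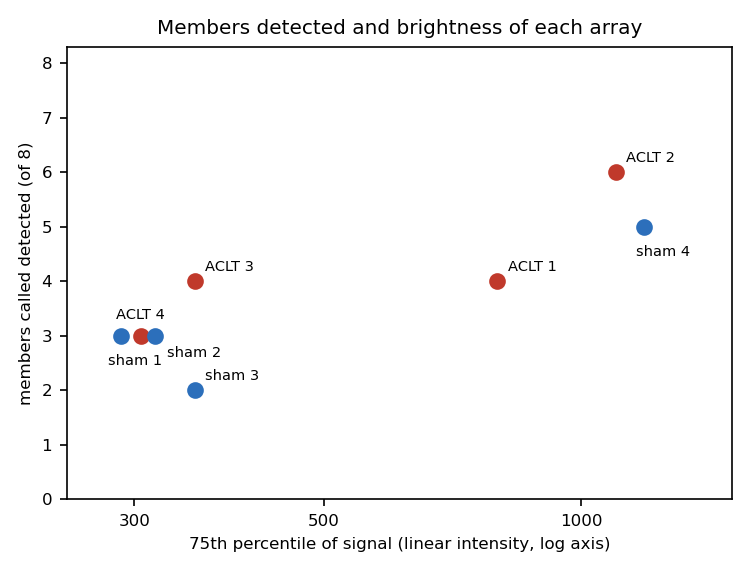
Number of the 8 miRNAs called detected (vertical axis) against the 75th percentile of signal of each array (horizontal axis, linear intensity units on a log axis), red for ACLT and blue for sham. The most members were detected on ACLT replicate 2 (6) and sham replicate 4 (5), the brightest arrays, and the fewest on sham replicate 3 (2).

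Of the feedback pair, miR-146a-5p was detected and well above background on every array and did not separate the groups. Its mean spot signal was 144, 245, 53.3 and 49.6 on ACLT replicates 1 to 4. On the sham replicates it was 61.0, 57.6, 57.0 and 283. The high values fell on the 3 brightest arrays, and the groups overlapped. Relative to each array's 75th percentile the log2 level was -1.96, -1.68, -2.26 and -2.16 after ACLT. After sham surgery it was -1.95, -1.82, -2.14 and -1.64. The highest levels thus lay 1 in each group, on sham replicate 4 and ACLT replicate 2, and the lowest on ACLT replicates 3 and 4 and sham replicate 3. The ACLT mean was -2.02 ± 0.26 and the sham mean -1.89 ± 0.21 (SD, n = 4 in each group). Sham replicate 4 and ACLT replicate 2, with the highest scaled levels, were also the brightest arrays. Summed striated muscle miRNA was 10.1, 11.9 and 4.69 times the 75th percentile on ACLT replicates 3 and 4 and sham replicate 3. On the other arrays it was 0.0802 to 3.52 times. The part of brightness and of muscle in the levels of miR-146a-5p was not tested.

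That log2 difference of miR-146a-5p, -0.13 (SE 0.16), was smaller than the SD within either group. By limma with Benjamini-Hochberg adjustment over the 113 tested miRNAs its adjusted p was 0.852, and 0 of the 113 passed 0.05 (0%), with 8 at an unadjusted p under 0.05 (7.08%). For 0 of the 113 were the groups without overlap (0%). The 95% interval, -0.50 to 0.25, runs from 0.706-fold to 1.19-fold, so a doubling or halving after ACLT lies outside it under this scaling. Its second, dimmer probe gave -0.20, with an interval of -0.41 to 0.0049. The sign depended on the scaling, with 0.25 for the 75th percentile over all probes, 0.20 without scaling (interval -1.53 to 1.92) and 0.015 with striated muscle probes left out of the percentile. The median of all 113 differences moved with it, from -0.07 to 0.25, 0.19 and 0.031 in that order. Relative to that median miR-146a-5p was at -0.057 in the main setting, 0 over all probes and 0.0083 without scaling.

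miR-146b-5p, which carries the same seed, was well above background on 2 ACLT arrays and 1 sham array and was called detected on 3 ACLT and 2 sham arrays. Its mean spot signal was 27.5, 31.6, 10.4 and 7.52 on ACLT replicates 1 to 4. On sham replicates 1 to 4 it was 6.28, 8.88, 9.38 and 32.3. All 8 values lay above the negative control median of their array, and the 3 arrays with high values were again the 3 brightest. On these it came to 3.58% (ACLT replicate 1), 3.06% (ACLT replicate 2) and 3.06% (sham replicate 4) of the 75th percentile as total signal per miRNA, and where it was detected on dimmer arrays to 2.01% (ACLT replicate 3) and 1.99% (sham replicate 2). On the dimmer arrays its mean spot signal exceeded 67.3% (sham replicate 1) to 90.3% (ACLT replicate 3) of the negative control spots. Its brighter probe lay at or under the lower limit of the scale, a log2 level of -4.48, on all 8 arrays. Fisher's exact test, two-sided, of 3 against 2 arrays gave p = 1, and its adjusted p was 1. Of the 96 miRNAs that some arrays detected and others did not, 0 passed an adjusted p of 0.05 (0%) and 1 an unadjusted one (1.04%). The smallest p that 4 against 4 arrays allow in this test is 0.0286. With 96 tests, none could pass after adjustment unless many reached that p together, so the 0 cannot show that detection was equal.

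miR-155-5p, the activation miRNA of macrophages and lymphocytes, lay below the negative control median on 5 of 8 arrays. Its mean spot signal was 6.25, 10.1, 0.0878 and 0.455 on ACLT replicates 1 to 4. The sham replicates gave 3.43, 3.41, 3.15 and 9.53. It was detected on ACLT replicate 2 and sham replicate 4 only, 1 array per group (Fisher's exact test p = 1, adjusted p = 1), with a total signal of 7.58 and 7.36 and error estimates by the scanner software of 2.05 and 1.84. These are the 2 brightest arrays. No probe of it was well above background on any array, so no fold between the groups is given, and no difference was detectable at this brightness.

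Neither member of the CREB-responsive pair stood above background in a way that both of its probes shared. miR-132-3p was called detected on 0 arrays, and its mean spot signal, from -2.07 on sham replicate 3 to 2.43 on ACLT replicate 2, lay below the negative control median on all 8. miR-212-3p was detected on ACLT replicate 3 alone (1 against 0 arrays, Fisher's exact test p = 1, adjusted p = 1). Its mean spot signal was 0.159, 0.231, 6.83 and 0.962 after ACLT. After sham surgery it was -1.65, -1.55, 6.35 and 3.69. On ACLT replicate 3 the brighter probe of miR-212-3p gave 12.7 and the other -0.0204, and on sham replicate 3, where it was not called detected, 10.6 and -0.50. The single detection therefore rests on 1 of 2 probes, and a sham array without the call came close to it.

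miR-221-3p was the second member present on all arrays, at levels near the lower limit of the scale, and it was well above background on 4 ACLT and 3 sham arrays. Its mean spot signal was 30.1, 43.1, 18.9 and 16.9 on ACLT replicates 1 to 4. For the sham replicates it was 16.6, 17.6, 14.5 and 41.2. Of the 64 spots per group, 49 were well above background after ACLT and 31 after sham surgery, 16 of the 31 on sham replicate 4. Over all spots of an array, 14.0%, 15.3%, 10.76% and 10.69% were well above background on ACLT replicates 1 to 4 and 10.5%, 11.1%, 11.8% and 17.0% on sham replicates 1 to 4. Relative to the 75th percentile its log2 level was -4.31, -4.28, -3.97 and -3.99 after ACLT. After sham surgery it was -3.86, -4.0, -4.39 and -4.46, with the floor at -4.48. The groups overlapped, the highest value being that of sham replicate 1 and the lowest that of sham replicate 4.

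The scaled level of miR-221-3p averaged -4.14 ± 0.18 on ACLT and -4.18 ± 0.29 on sham arrays (SD, n = 4 in each group). These means differed by 0.036 (SE 0.17), less than the SD within either group. The limma adjusted p was 0.964, and the 95% interval, -0.35 to 0.43, runs from 0.782-fold to 1.34-fold. The sign turned under labelling spike-in scaling (-0.16), in the mean over both probes (-0.0031) and with normexp background correction (-0.035). It also turned without ACLT replicate 3 (-0.021) or 4 (-0.013) and without sham replicate 3 (-0.035) or 4 (-0.059). Of all 113 tested miRNAs, 38 had a positive difference (33.6%). With the floor higher by a factor of 2 all 8 arrays lay at the floor and the difference was 0. The second probe was above the floor on 1 array, so the difference rests on the brighter probe.

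Slide row split miR-221-3p in opposite directions. A number in the array barcode of the file headers was read here as the slide row. By that reading replicates 1 and 2 of both groups lay in row 1 and replicates 3 and 4 in row 2. In row 1 both ACLT arrays lay below both sham arrays (difference -0.37, limma adjusted p = 0.136), and in row 2 both ACLT arrays lay above both sham arrays (0.44, adjusted p = 0.482). The interaction of row and group, a test added after the data were seen, was 0.81 (95% interval 0.53 to 1.10). For this interaction, 14 of the 113 tested miRNAs had an unadjusted limma p under 0.05, and 0 passed after adjustment. That of miR-221-3p had a limma adjusted p of 0.0841, which missed the threshold of 0.05 and was the smallest of the 113. Beside it stands brightness: in row 1 both ACLT arrays (797 and 1097) were brighter than both sham arrays (289 and 317), and in row 2 the sham arrays had 353 and 1185 and the ACLT arrays 353 and 305. The part of brightness in this split was not tested. miR-146a-5p showed 0.068 in row 1 and -0.32 in row 2, with an interaction of -0.39 (limma adjusted p = 0.469).

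**Figure D3:**
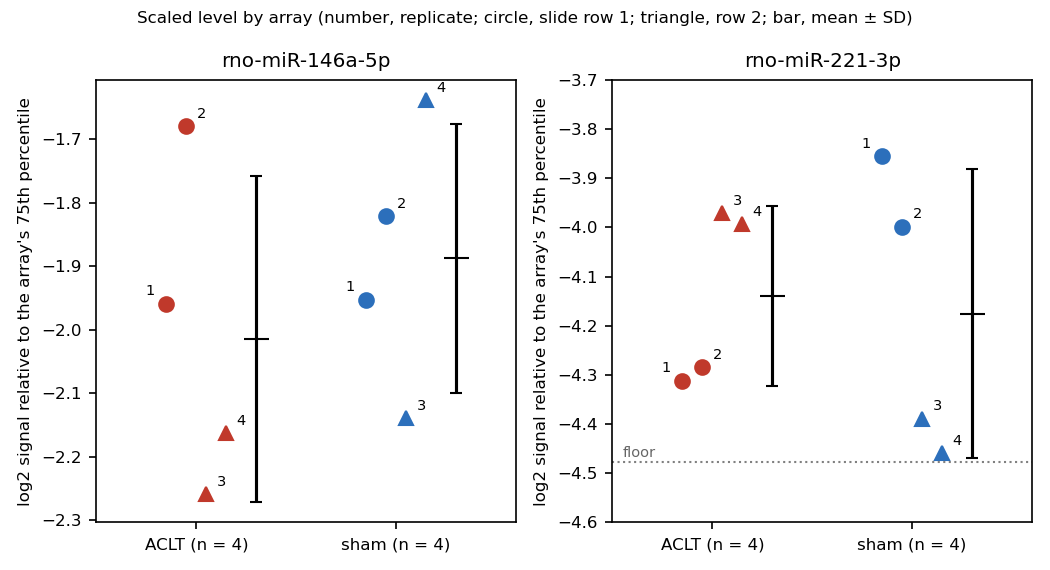
Log2 signal relative to each array's 75th percentile (vertical axis) of miR-146a-5p (left) and miR-221-3p (right) on the ACLT and sham arrays, 1 point per array with its replicate number, circles for slide row 1 and triangles for row 2, and bars for mean ± SD (n = 4). The groups overlap in both panels, and for miR-221-3p the ACLT circles lie below the sham circles and the ACLT triangles above the sham triangles.

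miR-222-3p, the neighbour of miR-221-3p with the same seed, was detected on ACLT replicate 2 alone, with a total signal of 6.88 and an error estimate of 2.03 (1 against 0 arrays, Fisher's exact test p = 1, adjusted p = 1). Its mean spot signal was 7.83, 10.9, 7.16 and 6.62 after ACLT. After sham surgery it was 7.38, 9.29, 4.25 and 7.34. These values lay above the negative control median on 7 of 8 arrays, and 0 of its spots were well above background on any array. The brightest array, sham replicate 4, lay between sham replicates 3 and 1. For none of the 3 seed pairs were both members above the floor on any array, so the planned test of a ratio within an array could not be made.

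miR-31a-5p had its highest value on 1 ACLT array. The mean spot signal was 24.5, 64.4, 8.80 and 8.57 on ACLT replicates 1 to 4. On sham replicates 1 to 4 it was 13.5, 6.61, 8.11 and 18.0. ACLT replicate 2 stood highest, and ACLT replicate 1 also lay above all sham arrays. Both are among the 3 brightest arrays, and these signals are unscaled. ACLT replicates 3 and 4 lay within the range of the sham arrays. It was detected on 3 ACLT and 2 sham arrays (Fisher's exact test p = 1, adjusted p = 1), and it was well above background on 2 ACLT arrays and 1 sham array. As a share of the 75th percentile its total signal was 6.24% on ACLT replicate 2, 3.26% on ACLT replicate 1 and 2.07% on ACLT replicate 4. On the sham arrays where it was detected it was 3.13% (replicate 1) and 1.52% (replicate 4). The log2 level of its brighter probe was above the floor on 2 arrays only, ACLT replicate 2 (-3.60) and sham replicate 1 (-4.08). ACLT replicate 1 lay at the floor. ACLT replicate 2 also had the lowest summed striated muscle miRNA (0.0802 times its 75th percentile, against 1.06 to 11.9 on the other arrays) and the highest summed mesenchymal miRNA (6.62 times, against 3.66 to 5.70), and the part of tissue make-up in the value of miR-31a-5p was not tested.

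Of the 5 members with partial detection, 4 were detected on more ACLT than sham arrays and 1 on equal numbers. Among all 96 miRNAs with partial detection, 48 were detected on more ACLT arrays (50%) and 25 on more sham arrays (26%). The lean of the members toward ACLT has the direction of that background.

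The other strands of the members' precursors were not seen. miR-146a-3p, miR-146b-3p, miR-155-3p, miR-132-5p, miR-212-5p, miR-221-5p, miR-222-5p and miR-31a-3p are all on the array, and 0 of the 8 were detected on any array, against 26.3% of all rat miRNAs. Each of the 7 precursors with any detection call was thus detected through 1 arm.

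Of 15 further miRNAs that inflammation or its feedback acts on, 9 were tested and 0 passed a limma adjusted p of 0.05. miR-125b-5p and miR-223-3p had an unadjusted p under 0.05, beside 8 of all 113 tested miRNAs (7.08%). Under the main scaling, 4 of the 9 had a higher and 5 a lower mean after ACLT. Over all 113, 33.6% had a higher mean. The median log2 difference was -0.06 for the 9, beside -0.07 over all 113. In the same direction as miR-146a-5p were miR-125a-5p (-0.14), miR-125b-5p (-0.38), miR-181a-5p (-0.32), miR-223-3p (-0.32) and let-7e-5p (-0.06), and in the other miR-21-5p (0.67), miR-34a-5p (0.58), miR-27b-3p (0.14) and miR-29b-3p (0.07). miR-210-3p, induced by hypoxia, was detected on 1 ACLT and 1 sham array. The 5 that were detected on no array were miR-9a-5p, miR-124-3p, miR-147, miR-187-3p and miR-203a-3p. miR-9a-5p, miR-147 and miR-187-3p are, like miR-146a and miR-155, induced by Toll-like receptor ligands in leukocytes.

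Markers of the cells that could carry the members were set beside them. All 4 leukocyte miRNAs (miR-142-3p, miR-142-5p, miR-150-5p, miR-223-3p) were detected on at least 1 array, and their summed signal was 0.123 to 0.183 times the 75th percentile after ACLT and 0.134 to 0.196 after sham surgery. All 3 mesenchymal (fibroblast) miRNAs were detected on all arrays, summing to 4.13 to 6.62 after ACLT and 3.66 to 5.69 after sham surgery. Striated muscle miRNAs ranged from 0.0802 to 11.9 after ACLT and from 1.06 to 4.69 after sham surgery, and cartilage miRNAs from 0.310 to 0.562 and from 0.212 to 0.452. The erythroid sums were 0.284 to 0.622 after ACLT and 0.297 to 0.976 after sham surgery, those of smooth muscle 0.626 to 0.716 and 0.714 to 1.07, and those of endothelium 0.558 to 0.727 and 0.604 to 0.938. On the remaining lists, 0 of 5 epithelial and 0 of 2 neural markers were detected. The part of these cells in the members' values was not tested.

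The pattern of each member over the arrays was set against the other 102 miRNAs detected on all 8 arrays, by the root mean square distance between log2 levels centred on their own means. The nearest to miR-146a-5p were miR-151-5p (0.091), miR-16-5p (0.11) and miR-322-5p (0.11), where the median distance was 0.27. Closest to miR-221-3p were miR-24-3p (0.12), miR-196a-5p (0.15) and miR-29b-1-5p (0.16), the last at the floor on 4 arrays, with a median distance of 0.33. miR-221-3p was 64th of 102 in nearness to miR-146a-5p (0.36). These distances describe 8 arrays that share their scaling, and a small one can come from levels that vary little.

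**Figure D4:**
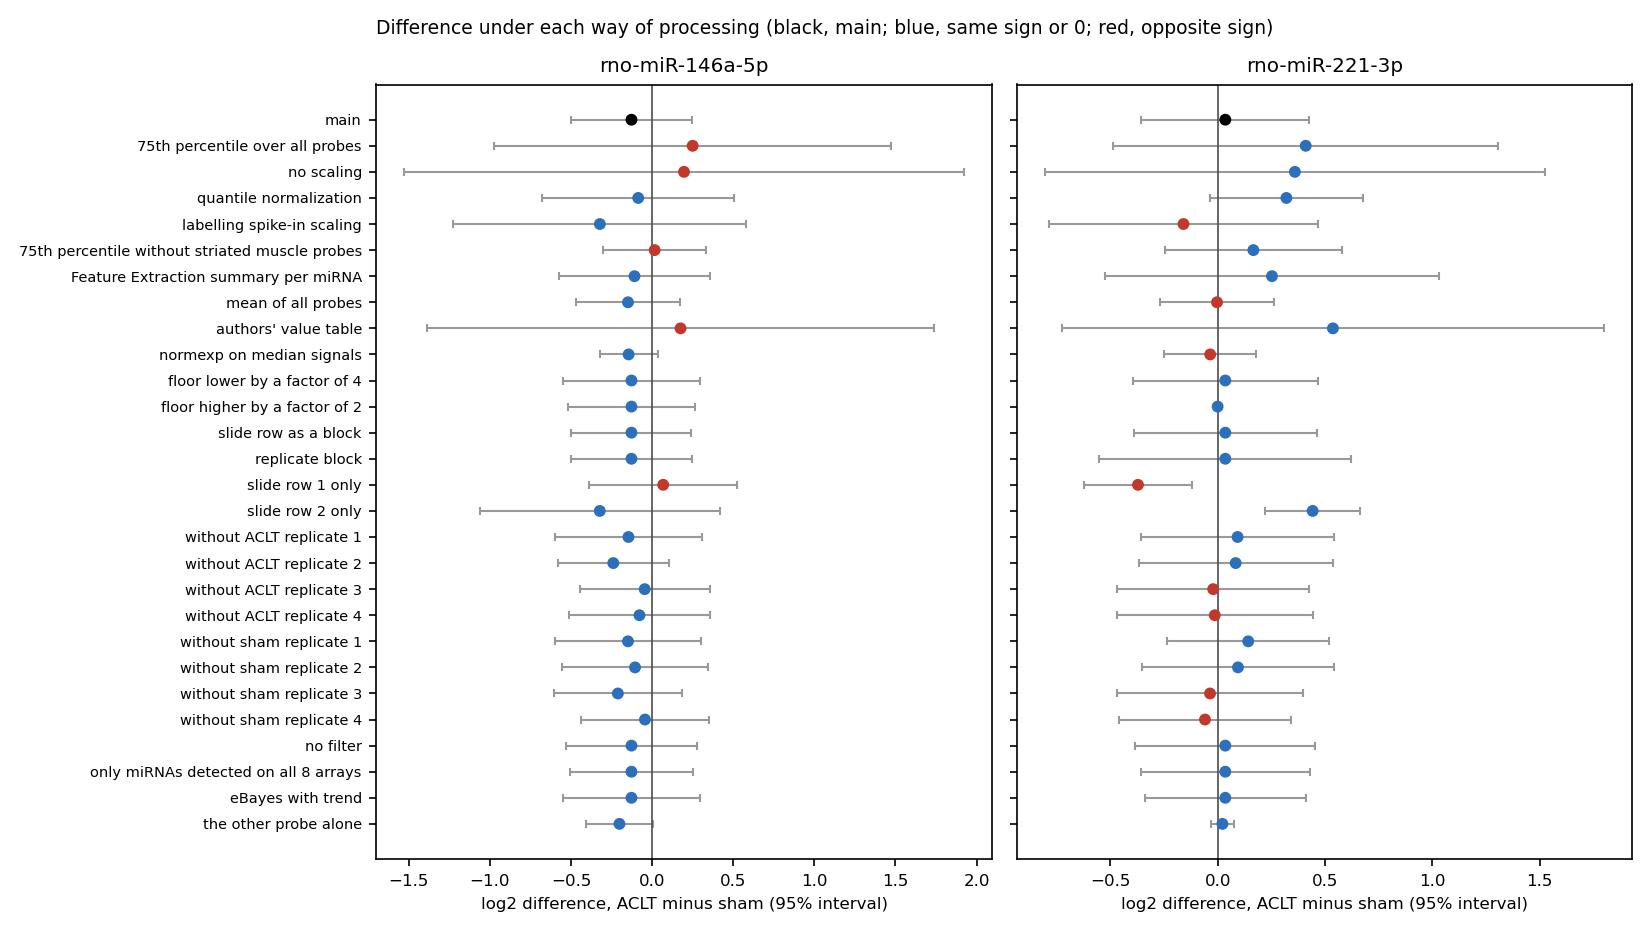
Log2 difference, ACLT minus sham, with its 95% interval (horizontal axis) for miR-146a-5p (left) and miR-221-3p (right) under each way of processing (vertical axis), black for the main one, blue for the same sign or 0 and red for the opposite sign. The intervals include 0 in all but the 2 fits within a slide row for miR-221-3p, where they lie on opposite sides of it.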

How the data were processed

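MicroRNA was measured on 8 Agilent rat miRNA arrays, 4 ACLT and 4 sham by sample title. The kit named in the labels for Cy3 labelling (50 ng of RNA) is one for messenger RNA. If it was used here is not settled. Per the file headers, Agilent Feature Extraction (version 10.7.3.1, protocol miRNA_107_Sep09) turned the authors' images into background-subtracted spot intensity in linear units with no scaling between arrays. The authors' deposited value table holds the same intensity, as total signal per miRNA (largest difference 0).

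Control spots and outlier spots (8.69% to 10.8% per array) were left out and spots of a probe averaged. A probe was well above background where at least 0.5 of its spots were. Scaling used the 75th percentile of each array, taken over 136 probes that passed this on every array. Values under 0.0449 (the median over arrays of the lowest such signal) were set to it, and log2 was taken. A miRNA is its brightest probe over all arrays. Tested were 113 miRNAs detected on all 4 arrays of a group, with limma 3.58.1 in R 4.3.3 and no covariate, at 95% confidence. Detection was tested with Fisher's exact test. The fit was tested on simulated data. The members, lists and tests were chosen with earlier results of these data known. All 8 members are described, further miRNAs come from fixed lists, and likeness names the 3 nearest. Alternatives were other scalings, probe summaries, the value table, normexp on median signals with an offset of 50, floors, filters, eBayes with trend, slide row, a replicate block and leave-one-out fits. The number of arrays and their brightness limit precision (10.5% to 17.0% of spots well above background).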

Additional observations from a re-analysis of the deposited data

Results flagged for a closer look

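An array stood apart from its 3 fellows in 5 of 20 sets of 4 arrays. The sets were the mean spot signal of 8 members and the scaled level of miR-146a-5p and miR-221-3p in each group. Chance gives about 1 on average. The sets share the same arrays and are not independent, so 1 array can stand apart in several and no excess is read from the 5. All 5 were mean spot signals, and 4 of them were on sham replicate 4, the brightest array, with a 75th percentile of 1185. On that array miR-146a-5p had 283 against 57.0 to 61.0 on the other sham arrays, a gap of 0.983 of the range, and miR-155-5p had 9.53 against 3.15 to 3.43, a gap of 0.957. There miR-221-3p had 41.2 against 14.5 to 17.6, a gap of 0.883, and miR-146b-5p had 32.3 against 6.28 to 9.38, a gap of 0.881. These signals are unscaled. On ACLT replicate 3, miR-212-3p had 6.83 against 0.159 to 0.962, a gap of 0.880 of the range, and 1 of its 2 probes carried that value.

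The difference of miR-221-3p ran in opposite directions in the 2 slide rows, with an interaction of 0.81 on the log2 scale (limma adjusted p = 0.0841 over 113 miRNAs). Of these 113, 14 had an unadjusted limma p under 0.05 for the same interaction.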

How the results depend on the processing

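limma called 0 miRNAs under 25 of 26 alternatives and 4 with slide row 1 only, among them neither member, and leaving out each array in turn gave 0 to 0 calls. The difference of miR-146a-5p was negative under 22 of 27 alternatives, from -0.24 to -0.044 without single arrays, and positive under all-probe percentile scaling (0.25), percentile scaling without striated muscle probes (0.015), no scaling (0.20), the authors' value table (0.18) and slide row 1 only (0.068). That of miR-221-3p was positive under 18 of 27, and negative with labelling spike-in scaling (-0.16), the mean of all probes (-0.0031), normexp (-0.035) and slide row 1 only (-0.37); without single arrays it ran from -0.059 to 0.14, negative without ACLT replicate 3 (-0.021) or 4 (-0.013) or sham replicate 3 (-0.035) or 4 (-0.059). The median of all tested miRNAs moved as well, from -0.07 to 0.25 under all-probe scaling, 0.19 unscaled, 0.21 for the authors' value table and -0.26 under spike-in scaling. The cause of these shifts was not tested.

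By probes well above background, in place of the detection call, 37.5% of member and array pairs after ACLT and 28.1% after sham surgery were present. The share over all rat miRNAs by this measure is not given here. Since 2 of the 3 brightest arrays are ACLT arrays, group and brightness cannot be told apart in it either. Without single arrays the detected share ran from 45.8% to 58.3% after ACLT and from 33.3% to 45.8% after sham surgery. Same-numbered arrays deviated together in 2 of 4 pairs (correlations -0.41 to 0.80). Arrays with different numbers did so too, as ACLT replicate 4 and sham replicate 3 (0.85). Whether the numbers pair the samples cannot be settled from this. With the replicate block limma called 0 miRNAs (4 at an unadjusted p under 0.05), with adjusted p of 0.895 for miR-146a-5p and 0.989 for miR-221-3p. The alternatives for ratios within seed pairs were not run, as no pair could be tested.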
